A study of Homo sapiens with 6 samples.

Results

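A set of 32 genes was examined, drawn from the histone demethylases, the other proteins with a JmjC domain and the protein arginine methyltransferases (PRMTs). It did not hold every gene of these families. A further 5 related genes, of which 1 was listed for N-Myc, are given below with the related gene lists. The set held 2 lysine demethylases of the amine oxidase type, 15 lysine demethylases and related proteins of the JmjC type, 7 further JmjC proteins and 8 PRMTs. A gene counted as listed when a row of the promoter, typical enhancer or super-enhancer lists carried its symbol, and the common peaks overlapping those rows were counted with it. By this rule 23 of the 32 genes were listed at least once, all for N-Myc, and 9 were not listed. Of 19222 autosomal protein-coding genes in the annotation, 38.2% were named in an N-Myc list. The lists of both proteins named 8278 gene symbols of any kind.

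The lists came from chromatin immunoprecipitation with sequencing (ChIP-seq) in CHP-134, an established human neuroblastoma cell line with MYCN amplification. Of the 6 samples, 3 replicates were precipitated with an antibody against N-Myc after cross-linking with formaldehyde, and 3 with an antibody against JMJD6 after double cross-linking with DSG and then formaldehyde. Antibody and cross-linking therefore cannot be told apart. The lists held 10172 N-Myc peaks and 561 JMJD6 peaks found in every replicate of their antibody, with positions alone and no height, score, read count or expression value, so that the depth behind a peak is unknown and the spread between replicates could not be computed. It was not stated whether the replicates came from separate cultures.

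Lysine demethylases take methyl groups off histone lysines. KDM1A and KDM1B do so with a flavin cofactor, whereas the JmjC enzymes use iron and 2-oxoglutarate, and several JmjC proteins hydroxylate other proteins or RNA instead. PRMTs add methyl groups to arginines, the modification that JMJD6, itself a JmjC protein, has been described to remove. N-Myc pairs with MAX on E-boxes, of which CACGTG is the canonical form, mostly at active promoters and enhancers.

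The sequences that carried the E-boxes are shown first, from the GRCh37 reference on its plus strand, 5′ to 3′, with every canonical E-box in capitals. Windows were 60 bases long, or 30 bases where more than 30 of the bases were untranslated region in any annotated transcript. The opening group lay inside common N-Myc peaks at the promoters listed for member genes, and was chosen because these 4 genes were the only ones among the 10 with a listed promoter whose peak held the motif.
KDM3A chr2:86667832-86667861: cacgatcagtacCACGTGcgcctgcgcctc
KDM2A chr11:67008699-67008758: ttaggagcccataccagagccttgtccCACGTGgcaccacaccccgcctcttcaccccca
HSPBAP1 chr3:122512649-122512708: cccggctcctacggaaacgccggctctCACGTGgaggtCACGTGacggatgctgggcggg
HSPBAP1 chr3:122512725-122512784: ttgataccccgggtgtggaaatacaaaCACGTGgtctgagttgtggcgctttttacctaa
MINA chr3:97690814-97690843: ggcggcgcagccCACGTGgaagccgtgctc
MINA chr3:97690937-97690966: ccattagcaggcCACGTGtgcgactctctg

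The next group lay inside N-Myc peaks of typical enhancers, away from the listed promoter of the named gene, with one window for each gene that had such an E-box.
KDM2B chr12:121974812-121974871: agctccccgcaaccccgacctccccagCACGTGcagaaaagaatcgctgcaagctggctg
KDM4A chr1:44030058-44030117: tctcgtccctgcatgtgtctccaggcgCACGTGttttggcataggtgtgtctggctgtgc
KDM4B chr19:5080075-5080134: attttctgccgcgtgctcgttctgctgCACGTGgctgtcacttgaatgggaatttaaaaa
KDM4C chr9:6681256-6681315: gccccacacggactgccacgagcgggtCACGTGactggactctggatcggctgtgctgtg
KDM5A chr12:511215-511274: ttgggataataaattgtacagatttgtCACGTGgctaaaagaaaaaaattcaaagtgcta
KDM6B chr17:7740167-7740226: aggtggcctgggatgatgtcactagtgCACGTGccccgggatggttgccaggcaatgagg
PHF2 chr9:96717767-96717826: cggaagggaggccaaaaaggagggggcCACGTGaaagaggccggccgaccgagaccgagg
PRMT6 chr1:107600540-107600569: aaagggagatccCACGTGcaagtaggggga
PRMT8 chr12:3311092-3311151: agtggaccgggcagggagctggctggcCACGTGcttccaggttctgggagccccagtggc

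The last group lay within 1 kb of a member's canonical start site but in no common N-Myc peak, and is given as the counterpart of the others. The E-boxes shown here for KDM4C and PRMT1 nevertheless lay in regions listed as N-Myc-bound typical enhancers.
KDM4B chr19:4968856-4968915: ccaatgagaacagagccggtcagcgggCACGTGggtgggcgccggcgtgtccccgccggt
KDM4C chr9:6757898-6757927: tgtttgtaagccCACGTGactcaccaagtg
JMJD8 chr16:734168-734227: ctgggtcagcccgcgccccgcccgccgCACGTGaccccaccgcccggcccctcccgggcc
PRMT1 chr19:50180873-50180932: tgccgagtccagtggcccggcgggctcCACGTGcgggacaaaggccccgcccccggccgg
PRMT3 chr11:20409048-20409107: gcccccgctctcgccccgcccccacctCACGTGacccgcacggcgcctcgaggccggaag

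N-Myc was listed at the promoters of 10 of the 32 genes, at typical enhancers of 22 and at a super-enhancer of 1, whereas JMJD6 was listed at none of the 32. The promoter share was 31.2% (exact 95% CI 16.1 to 50%), against 18.3% of all autosomal protein-coding genes. The enhancer share was 68.8% (CI 50 to 83.9%), against 32.8% of all genes. The super-enhancer share was 3.12% (CI 0.0791 to 16.2%), against 1.36%. By these listings the promoter interval included the share of all genes and the enhancer interval did not. The promoter reading depended on the rule. With a common peak within 1 kb of any annotated start, the interval (26.4 to 62.3%) lay above the 21.5% of all genes. With only peaks at least as wide as the median, the interval (3.51 to 29%) included the 10.9% of all genes. These intervals cover counting error over the genes only, the genes were chosen with earlier results of these data known, and no test was made of the set against other genes.

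Promoter and enhancer listings fell on the same genes for 9 members, CARM1, HSPBAP1, KDM1A, KDM2A, KDM3A, KDM4C, KDM5A, MINA and PRMT5 (13.4% of all genes had both). KDM1B had a listed promoter without a typical enhancer (4.97% of all genes), and 13 members had a typical enhancer without a listed promoter (19.4% of all genes). Any N-Myc list named 23 of the 32 members, against 38.2% of all genes, and these 23 were all the listed members. Members were longer genes than most, with a median length of 53.0 kb against 27.6 kb, and 17 of 32 (53.1%) held a common N-Myc peak between their annotated ends, against 26.7% of all genes. The part of gene length in the enhancer count was not tested.

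**Figure D1:**
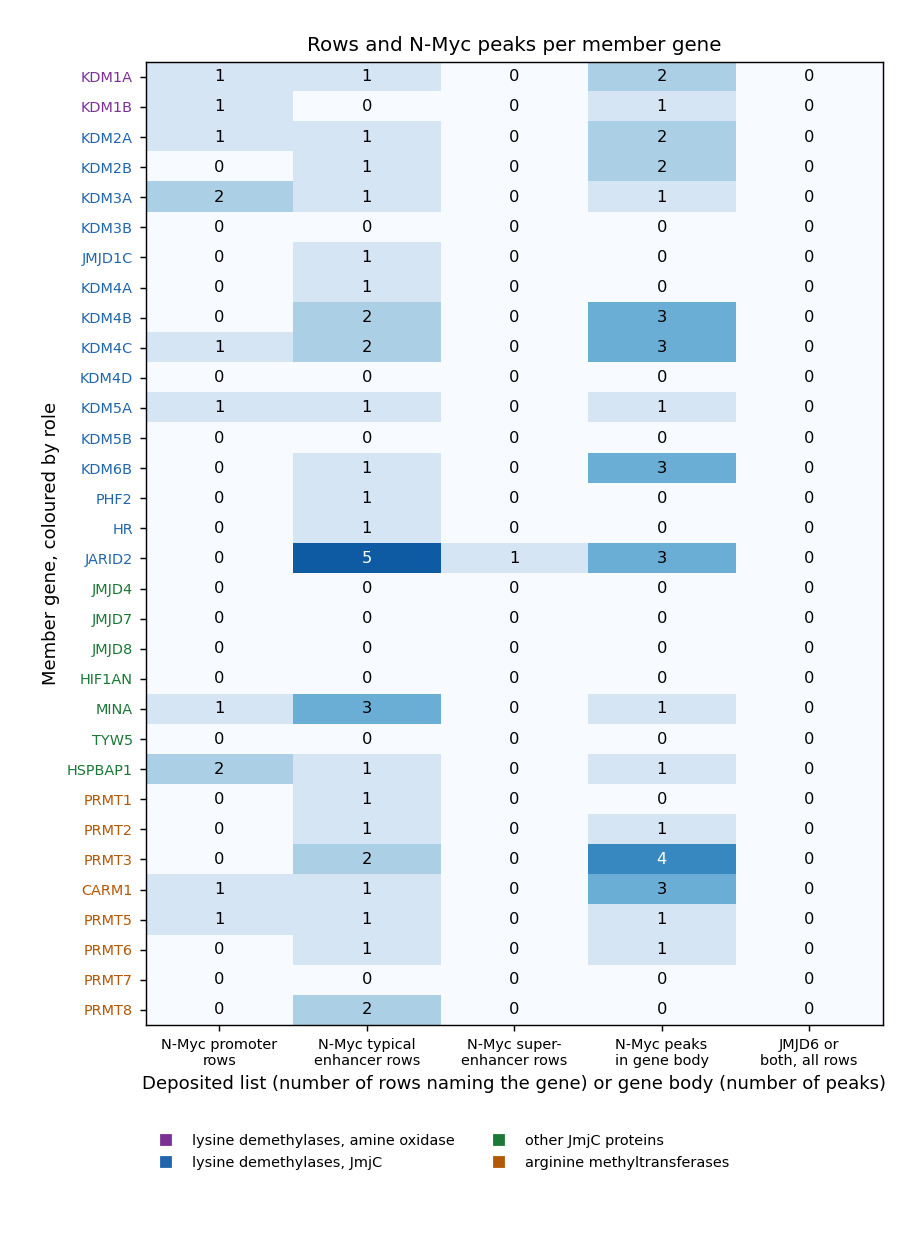
Number of rows naming each of the 32 member genes in the N-Myc promoter, typical enhancer and super-enhancer lists, number of common N-Myc peaks inside the gene, and number of rows in any list of JMJD6 or of both proteins; genes run down the vertical axis, coloured by role. The last column is 0 for all 32 genes, JARID2 has the most enhancer rows (5), and 9 genes have 0 in every column.

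By role, both amine oxidase demethylases had an N-Myc-bound promoter, against 18.3% of all genes. So did 4 of 15 JmjC demethylases and related proteins (26.7%), 2 of 7 other JmjC proteins (28.6%) and 2 of 8 PRMTs (25.0%). Typical enhancers were listed for 1 of 2 amine oxidase demethylases, 12 of 15 JmjC demethylases and related proteins (80%) and 7 of 8 PRMTs (87.5%). They were listed for 2 of 7 other JmjC proteins (28.6%), and for 32.8% of all genes. The groups were small, and their difference was not tested.

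**Figure D2:**
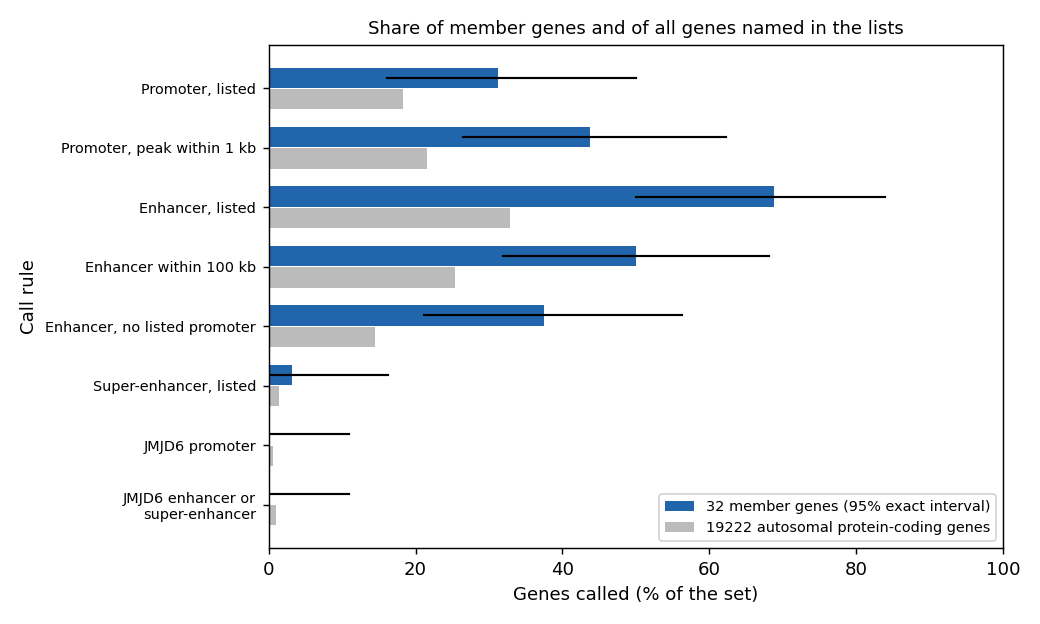
Percentage of the 32 member genes (blue bars, with exact 95% intervals as lines) and of 19222 autosomal protein-coding genes (grey bars) called by each rule named on the vertical axis. The members' bar is longer than that of all genes for each of the 6 N-Myc rules, and for the JMJD6 rules the members are at 0 with intervals up to 10.9%.

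The amine oxidase pair carried N-Myc at different places. KDM1A (LSD1), which removes mono- and dimethylation of H3K4, had a 381-bp peak (chromosome 1, 23345581 to 23345961) from -359 to 21 bp around its listed start site, which the peak covered. A further peak of 410 bp (23347184 to 23347593) lay in a KDM1A intron, and both lay in a region of 3001 bp listed as a typical enhancer 0.9 kb from the start. Neither peak held a canonical E-box. KDM1B (LSD2), its relative at transcribed gene bodies, had a 215-bp peak (chromosome 6, 18156269 to 18156483) in an intron, from 651 to 865 bp downstream of the listed start. It was among the narrowest of the N-Myc list, in which 0.6% of peaks were narrower, and it also met the listed promoter of TPMT.

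Among the JmjC demethylases, the promoters of KDM3A, KDM5A, KDM4C and KDM2A were listed, and each was laid out differently. At KDM3A, an H3K9 demethylase, a peak of 824 bp (chromosome 2, 86667674 to 86668497) covered the upstream of its 2 listed start sites and held 1 E-box, -423 bp from that site. Of all N-Myc peaks, 93.1% were narrower. KDM5A, which removes H3K4 trimethylation, had a 359-bp peak (chromosome 12, 498337 to 498695) across the start site without an E-box. That peak overlapped KDM5A and CCDC77, a gene transcribed the other way, and met the listed promoters of both.

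KDM2A, a CpG-binding H3K36 demethylase, was bound far from its canonical start. Its listed start was an internal one, 120771 bp downstream of the canonical start and 13 bp from an annotated start site. A 489-bp peak (chromosome 11, 67007257 to 67007745) covered that internal start and lacked an E-box, and a second peak of 422 bp (67008463 to 67008884) lay from 958 to 1379 bp downstream of it, mostly outside the promoter window, with the E-box shown above at 1224 bp. The nearest N-Myc peak to the canonical start was the former, 120.5 kb away.

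At KDM4C, an H3K9 and H3K36 demethylase, a narrow peak of 226 bp (chromosome 9, 6757680 to 6757905) lay from 331 to 556 bp downstream of the listed start and 68 bp upstream of the canonical start. It held no E-box, but E-boxes stood just past its edge, -60 and -28 bp from the canonical start and 8 and 40 bp from the peak. The deposited peak limits therefore decided whether this promoter counted as holding the motif.

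Both other JmjC proteins with a listed promoter had several E-boxes inside the peak. HSPBAP1, a JmjC protein that binds the small heat shock protein HSP27, had 3 of them in a 681-bp peak (chromosome 3, 122512489 to 122513169), all within 89 bp upstream of its listed starts. The pair nearest the start site is 11 bp apart and is seen in a single window above. The peak also met the listed promoter of the neighbouring gene DIRC2. MINA, listed as RIOX2 among the promoters and as MINA among the enhancers, encodes a ribosomal histidine hydroxylase. Its 409-bp peak (chromosome 3, 97690570 to 97690978) began 317 bp downstream of the listed start, in an intron of the canonical transcript, with E-boxes 323 and 446 bp downstream of the canonical start.

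The PRMTs with a listed promoter were CARM1, which methylates H3R17 and coactivates nuclear receptors, and PRMT5, the main enzyme of symmetric arginine dimethylation. PRMT5 had the widest promoter peak of the set, 865 bp (chromosome 14, 23398254 to 23399118), from -324 to 540 bp around the listed start, and that peak also met the listed promoter of LOC101926933. At CARM1 a 387-bp peak (chromosome 19, 10983007 to 10983393) lay downstream, from 755 to 1141 bp, with 246 bp of it inside the promoter window. Neither held a canonical E-box. The PRMT5 peak held 1 of the non-canonical forms searched (CACGCG and CATGTG, on both strands) and the CARM1 peak none.

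**Figure D3:**
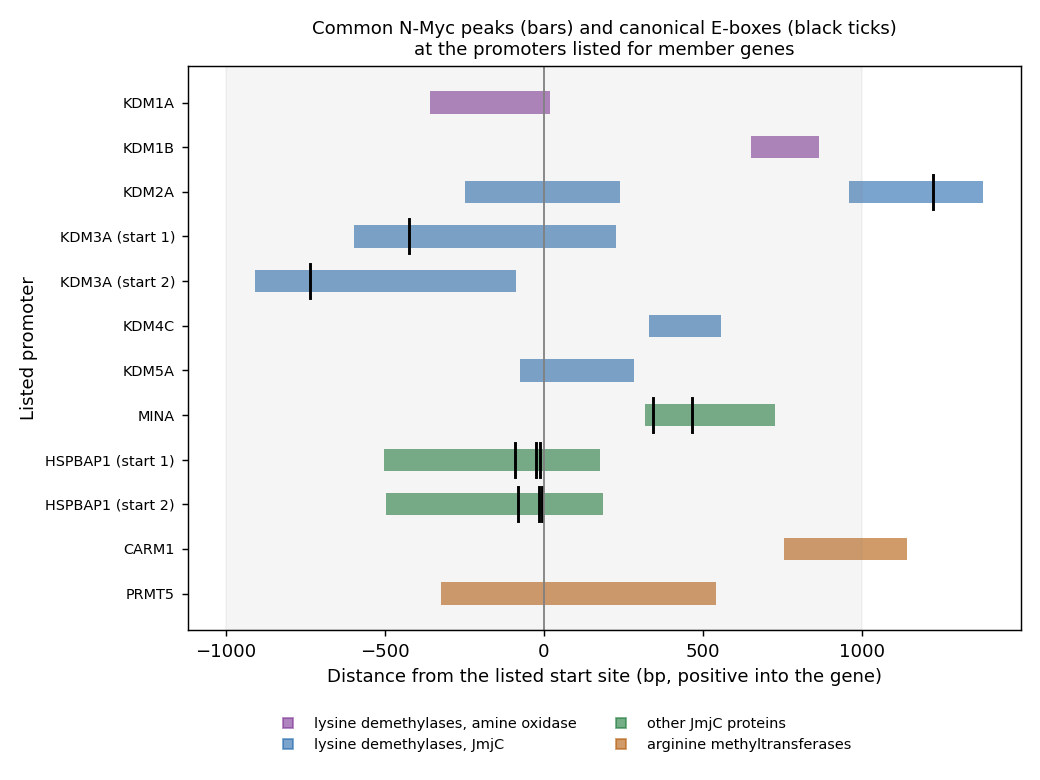
Common N-Myc peaks (bars, coloured by role) and canonical E-boxes (black ticks) at each listed promoter of a member gene, by distance in bp from the listed start site, with the promoter window of 1 kb on each side shaded; genes with 2 listed starts have 2 lines. The peaks of KDM1A, KDM2A, KDM3A, KDM5A, HSPBAP1 and PRMT5 cover a listed start, and those of KDM1B, KDM4C, MINA and CARM1 lie downstream of it.

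The promoter peaks of the members were placed around the start sites much like those of other genes. A peak covered a listed start for 6 of the 10 genes (60.0%), against 58.7% of the 3527 genes with an N-Myc-bound promoter, and for 4 of the 10 the peak met the listed promoter of another gene as well, against 34.6%. The 11 peaks had a median width of 409 bp (215 to 865 bp), beside 452 bp for all 3550 N-Myc peaks at listed promoters. Their median ratio of observed to expected CpG was 0.73 in both sets. A canonical E-box was found in 4 of the 11 (36.4%, exact CI 10.9 to 69.2%), against 36.9% of all N-Myc peaks at listed promoters, a share near the background. A promoter peak at least as wide as the median N-Myc peak was found for 4 of the 10 genes (40%), against 59.7% of the 3527. Counted over the whole set this was 4 of 32, beside 10.9% of all genes.

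E-boxes were then counted around every member's canonical start, whether or not N-Myc was listed there. Within 1 kb on either side, 8 of the 32 genes (25.0%) held at least 1 canonical E-box, against 29.3% of 18971 genes with a canonical start. For 3 of the 8, KDM3A, MINA and HSPBAP1, an E-box lay inside a common N-Myc peak (37.5%, against 22.8% of all genes with such an E-box). For the other 5 it did not. At KDM4C the peak edge was 8 bp away. The nearest N-Myc peak was 111.0 kb from the E-box of KDM4B, 35.8 kb from that of JMJD8 and 31973 bp from that of PRMT3. PRMT1, the enzyme of most asymmetric arginine dimethylation, had 3 E-boxes between 274 and 375 bp downstream of its start, none nearer than 36.8 kb to a common peak. All 3 nevertheless lay inside the region listed as an N-Myc-bound typical enhancer of PRMT1, which held no common peak.

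A peak near a start site did not always go with a listed promoter. KDM2B, KDM4B, KDM6B and PRMT6 were not in the promoter list although a common N-Myc peak lay within 1 kb of an annotated start of each. At KDM2B, which ties CpG islands to Polycomb complexes, a peak covered an internal start, and the peak nearest to its canonical start was 43968 bp downstream of it. KDM4B had a peak over an internal start, and the peak nearest to its canonical start was 110.8 kb downstream of it. At KDM6B, the H3K27 demethylase, the nearest peak was 600 bp downstream of the canonical start, and at PRMT6, which methylates H3R2, it was 894 bp downstream. Counting genes by a peak within 1 kb of any annotated start gave 14 of 32 (43.8%, exact CI 26.4 to 62.3%), against 21.5% of all genes.

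Typical enhancers gave most of the listings, with 32 rows for 22 genes. Each region was assigned by the authors to nearby genes, so a row names a gene without showing contact with it. Listed distances ran from 0.141 to 981 kb with a median of 72.2 kb, beside 46.0 kb over all 8892 assignments, and 18 of the 32 (56.2%) were within 100 kb, against 65.6%. The region overlapped the named gene itself in 19 of the 32 (59.4%, against 44.7% of assignments to annotated genes). Without regions that overlapped an N-Myc-listed promoter, 12 of the 32 genes kept a typical enhancer (37.5%), against 14.5% of all genes. At least 2 rows were listed for 6 members (8.42% of all genes had as many), and at least 3 for MINA and JARID2 alone (2.51% of all genes).

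JARID2, a JmjC protein without demethylase activity that belongs to Polycomb repressive complex 2, was the most often named member. It had 5 typical enhancers and the only super-enhancer of the set, whereas 0.291% of all genes had 5 or more typical enhancers. The 5 regions were listed at 981.1, 727.6, 292.8 and 114.3 kb upstream and 377.4 kb downstream, all beyond 100 kb and all outside the gene, and each held 1 common peak without a canonical E-box. The super-enhancer (chromosome 6, 15388362 to 15407118, 18.76 kb) lay inside JARID2, 151.2 kb from its start, and held 1 intronic peak of 688 bp (15399996 to 15400683), also without a canonical E-box. DTNBP1 was the other gene named for it, at 265.5 kb. The gene itself held 3 common peaks, 1 of them with an E-box and outside the listed regions. No peak lay at the JARID2 promoter, and the nearest to the canonical start was 62.4 kb into the gene.

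Of the KDM4 genes, KDM4A, KDM4B and KDM4C, which act on H3K9 and H3K36, were named for typical enhancers, and KDM4D was not listed. The region named for KDM4A (chromosome 1, 44022485 to 44032697) lay in an intron of PTPRF, 88.2 kb upstream of KDM4A and nearer to PTPRF (31.0 kb). Its peak of 1663 bp was wider than 99.7% of all N-Myc peaks and held 2 E-boxes. KDM4B had an intronic region of 13.18 kb (chromosome 19, 5080099 to 5093274) with 2 peaks of 814 and 893 bp, both with E-boxes, and a second region 324.8 kb away in an intron of PTPRS. For KDM4C, a region 76.0 kb upstream held a 1062-bp peak with an E-box, and the other region was the narrow promoter peak itself, 236 bp long.

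KDM6B had the region with the most peaks. Its 24.24-kb enhancer (chromosome 17, 7738122 to 7762358) covered most of the gene and held 4 peaks, 3 of them with an E-box, at 366, 514 and 775 bp wide. The 775-bp peak lay at the start sites of CYB5D1 and NAA38, whose promoters were listed, so that part of this region was promoter sequence of other genes. KDM2B had a 0.66-kb intronic region that met 2 peaks, 1 with an E-box. KDM5A had a 15.47-kb region with 2 peaks, of which a 992-bp peak with an E-box lay in an intron of CCDC77.

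JMJD1C, PHF2 and HR were linked to N-Myc by less direct rows. The region named for JMJD1C, a relative of KDM3A, lay in a JMJD1C intron 197.8 kb from its start and held no common N-Myc peak, although it was in the list of N-Myc-bound enhancers. For PHF2, an H3K9 demethylase, the region lay 378.2 kb away at the promoter of BARX1, 0.8 kb from that gene. For HR (hairless), a nuclear receptor corepressor, the region was 4.7 kb upstream, and its peak of 464 bp lay in an intron of REEP4, whose promoter was listed. KDM2A and KDM3A had regions of 1.87 and 2.32 kb that held the same peaks as their promoters.

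Among the PRMTs, all but PRMT7 were named for a typical enhancer. The CARM1 region was 24.27 kb long and held 3 peaks, the promoter peak and intronic peaks of 390 and 477 bp, without an E-box. PRMT3, which methylates a ribosomal protein, had 2 intronic regions 68.4 and 100.6 kb from its start with 3 peaks in all. In these 3 the CpG ratio was 0.07 to 0.24, and none held a canonical E-box. PRMT2 had 1 intronic peak of 235 bp, 26.3 kb from its start.

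PRMT8, the membrane-bound PRMT of the brain, was named for regions 278.5 and 381.8 kb upstream, both in introns of TSPAN9 and nearer to it, with 6 peaks between them, 3 of which held E-boxes. No common peak lay inside PRMT8. PRMT6 had a 501-bp peak (chromosome 1, 107600190 to 107600690) with an E-box in a 1.83-kb region over its own exon. The PRMT5 region, 11.96 kb long, held only the promoter peak. PRMT1 was named for a 15.77-kb region over the gene that held no common peak, the same situation as JMJD1C.

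**Figure D4:**
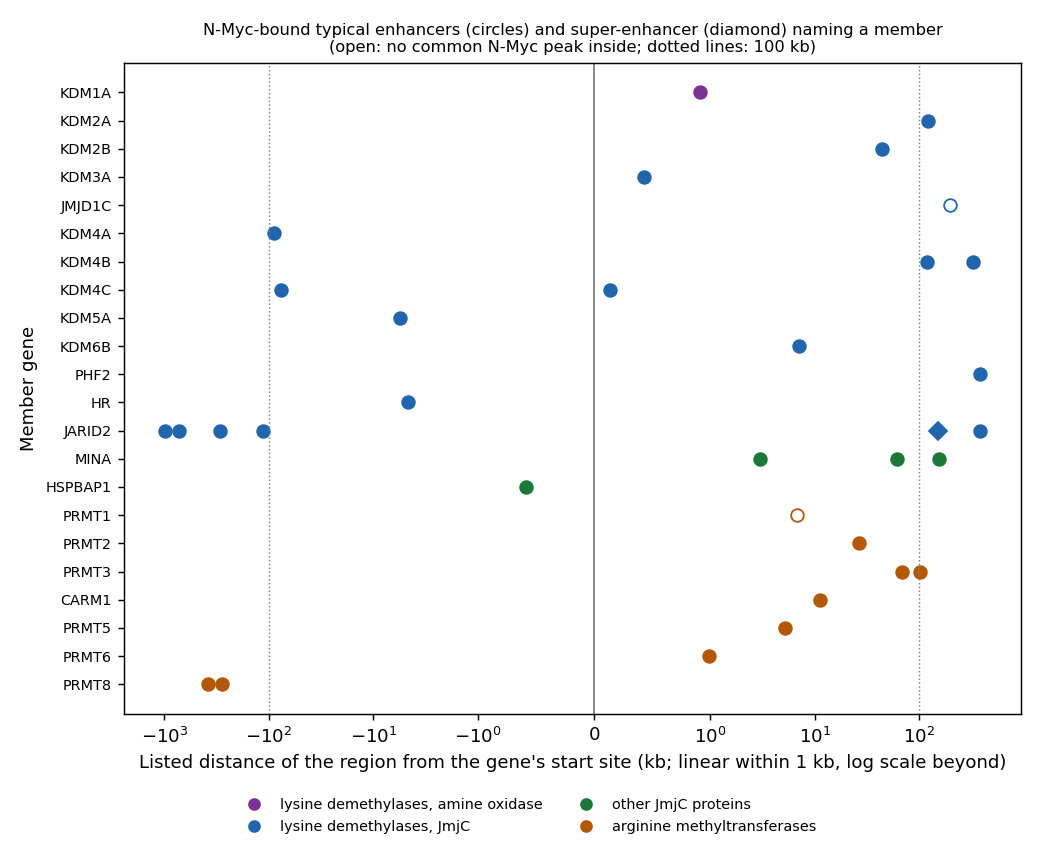
Listed distance in kb of each N-Myc-bound typical enhancer (circles) and super-enhancer (diamond) from the start site of the member gene it names, on an axis that is linear within 1 kb and logarithmic beyond, coloured by role; open circles hold no common N-Myc peak and dotted lines mark 100 kb. Open circles are JMJD1C and PRMT1, and the 5 typical enhancers of JARID2 all lie outside the dotted lines.

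The member regions held 46 distinct peaks, of which 18 (39.1%, CI 25.1 to 54.6%) contained a canonical E-box, against 34.1% of 5419 N-Myc peaks in typical enhancers. Among the 31 that met no listed promoter the count was 11 (35.5%, CI 19.2 to 54.6%), against 30.5% of 2652. Both intervals included the shares of all such peaks. The 31 peaks had a median CpG ratio of 0.31, below the 0.73 of the member promoter peaks, and the same contrast was seen over all N-Myc peaks (0.28 and 0.73). The 46 peaks had a median width of 468.5 bp, beside 472 bp over all typical enhancers. The 46 included the peak of the JARID2 super-enhancer.

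The bases next to the E-box varied. Of the 24 E-boxes at member peaks (chromosome 8 left out), 4 were flanked by C on both sides, against 9.46% of all E-boxes in N-Myc peaks. Another 4 had G before and C after, against 5.72%. Flanks were read on the plus strand. C on both sides is G on both sides when read on the other strand, and that was found in 1 of the 24 (9.35% of all). The flanks C and G, the most frequent over all 3913 E-boxes in N-Myc peaks (19.3%), occurred in 2 of the 24, at KDM2A and MINA.

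**Figure D5:**
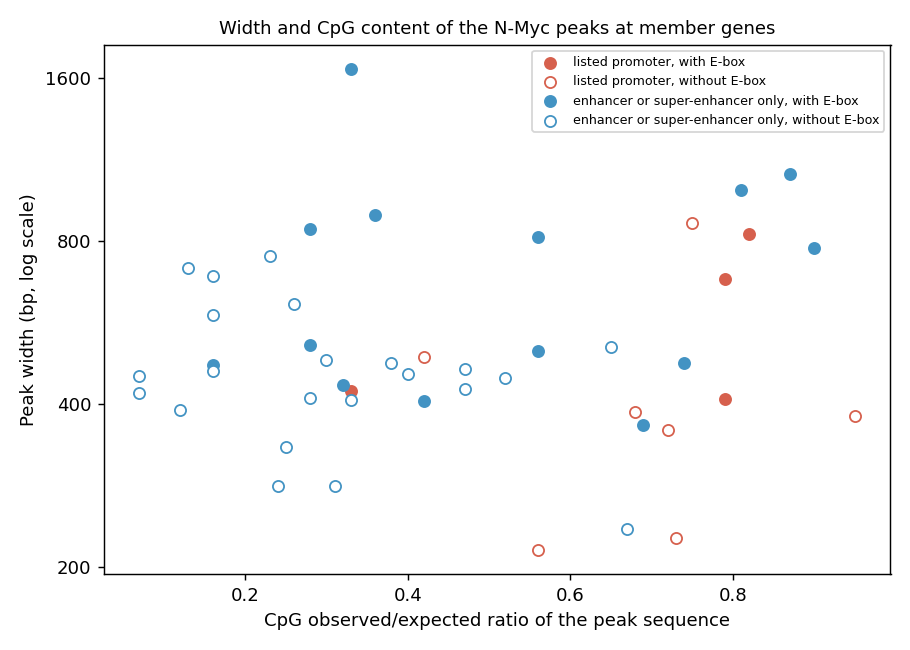
Width in bp (vertical, log scale) against the ratio of observed to expected CpG (horizontal) of each common N-Myc peak at a member gene. Red points are peaks at the member's listed promoter, and blue points are its other enhancer or super-enhancer peaks. Some blue peaks met listed promoters of other genes. Points are filled where the peak holds a canonical E-box. All but 2 of the promoter peaks have a ratio above 0.5, those 2 being the KDM2A peaks at 0.42 and 0.33, and the widest point is the KDM4A peak of 1663 bp.

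JMJD6 was not found at any gene of the set. None of the 32 was named in the JMJD6 promoter list, the JMJD6 enhancer and super-enhancer lists or the lists of regions bound by both proteins (0 of 32, exact CI 0 to 10.9%). Since 0.655% of all genes had a JMJD6-bound promoter and 1.01% a JMJD6-bound typical enhancer or super-enhancer, a count of 0 among 32 genes is near the background. No JMJD6 peak lay inside any of the 32 genes, against 1.15% of all genes with at least 1. From the canonical start sites the nearest JMJD6 peak was between 53.6 kb (HIF1AN) and 34078.1 kb (PRMT5) away, with a median of 2593.5 kb. The JMJD6 list held only 561 peaks, and these distances were not set beside those of all genes.

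The 9 genes not listed were KDM3B, KDM4D, KDM5B, JMJD4, JMJD7, JMJD8, HIF1AN, TYW5 and PRMT7. No common N-Myc peak lay inside any of them, and they were shorter than the listed members, with a median length of 26.8 kb against 64.2 kb. PRMT7, which adds single methyl groups to arginine, had the nearest N-Myc peak, 10.7 kb upstream at SLC7A6 and SLC7A6OS. For JMJD7, a lysyl hydroxylase, the nearest peak was 35.7 kb away, for JMJD8, a protein of the endoplasmic reticulum, 35.9 kb, and for JMJD4, which hydroxylates a translation termination factor, 53.7 kb. For the demethylases KDM4D, KDM3B and KDM5B the distances were 76.1, 96.2 and 184.2 kb. TYW5, which hydroxylates a modified base of transfer RNA, was 104.0 kb from a peak, and HIF1AN, the asparagine hydroxylase that restrains hypoxia-inducible factor, was 231.1 kb from one. The last of these was at the same time the member nearest to a JMJD6 peak.

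Related gene lists were read by the same rules, to be set beside 18.3% of all genes for promoters and 32.8% for typical enhancers. Of 14 partners of KDM1A and PRMT5, 7 (50%) had an N-Myc-bound promoter and 11 (78.6%) an N-Myc-bound typical enhancer, among them WDR77, CLNS1A and RIOK1, the binding partners of PRMT5, and RCOR2 and RCOR3, corepressors of KDM1A, each of which had both. Of 29 lysine methyltransferases, 7 (24.1%) had a bound promoter and 18 (62.1%) a bound enhancer. Of 14 genes that supply or consume 2-oxoglutarate, succinate, fumarate or S-adenosylmethionine, 5 (35.7%) had a bound promoter and 9 (64.3%) a bound enhancer. Of 5 further JmjC, PRMT and related genes, none had a bound promoter and only KDM8 (20%) a bound enhancer. An enhancer share above that of all genes was thus also seen in 3 of these 4 lists, and none of them was tested. The only genes of these lists named for JMJD6 were the methyltransferases EZH2 and SUV39H2, each by a typical enhancer.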

How the data were processed

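ChIP-seq was done in CHP-134 cells with antibodies to N-Myc or JMJD6 (3 replicates each, grouped by antibody label). The authors aligned reads to hg19 with BWA, called peaks against input with MACS2 2.1.1.20160309 (q-value maximum 0.05), kept peaks found in all 3 replicates, took promoters as 1 kb on each side of a start site, defined enhancers with ROSE from H3K27ac (stitching 12.5 kb) and named nearest genes with GREAT. The 12 deposited lists hold only positions in bp and gene names, pooled over replicates, with no column per sample, count, signal or score. Reads were not used here.

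Members and lists were chosen with earlier results of these data known. All 32 members were named with their promoters, regions or nearest peak, other genes only as counts unless listed for JMJD6, sharing a peak or region with a member, or binding KDM1A or PRMT5 (the last chosen after their values were seen). Symbols were matched to GENCODE 44 lifted to GRCh37, 1 of them (MINA) through a RefSeq synonym. As a check of the build, 87.9% of 4465 N-Myc promoter rows with a matched symbol lay within 100 bp of an annotated start. Overlap meant at least 1 bp. Shares have exact (Clopper-Pearson) 95% intervals beside the share of 19222 autosomal protein-coding genes, and no p-value was computed. Related genes off the autosomes were not analysed here, and MLL2 and MLL4 were left out as ambiguous older symbols. The overlap procedure was tested on simulated data. Analyses used Python 3.11.15, pysam 0.24.0 and SciPy 1.17.1, and plots matplotlib 3.10.9. Alternatives covered distance, peak width, overlap, promoter overlap, the nearer gene and the motif.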

Additional observations from a re-analysis of the deposited data

How the results depend on the processing

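Counts of members were recomputed under each alternative. The promoter count of 10 fell when only peaks at least as wide as the median of the N-Myc list counted (4 of 32, beside 10.9% of all genes), which removed CARM1, KDM1A, KDM1B, KDM4C, KDM5A and MINA. The other promoter alternatives gave 9 to 14 of 32, beside 17.5 to 23% of all genes. Exact intervals lay above the share of all genes when a peak was sought within 500 bp, 1 kb or 2 kb of any annotated start. They included that share under the remaining promoter rules. The enhancer count of 22 became 12 without regions that overlap an N-Myc-listed promoter (14.5% of all genes) and 8 when these regions also had to lie within 100 kb (8.29%, chosen after seeing the data). The other enhancer alternatives gave 15 to 20, beside 19.8 to 32.1% of all genes. JMJD1C and PRMT1 were the members lost when a region had to hold a common peak (also chosen after seeing the data, as was the count of 9 promoters by own symbol alone). The super-enhancer count of 1 became 0 within 100 kb (0.822% of all genes). Member promoter peaks with an E-box rose from 4 to 7 of 11 with non-canonical forms included (67.3% of all promoter peaks). They were 3 within 100 bp of the peak centre (23% of all promoter peaks). JMJD6 counts stayed at 0 under the alternatives run, beside 0.812% of all genes for promoters and 0.765% for typical enhancers or super-enhancers. No paired analysis was possible because the lists hold no column per sample, and for the same reason no replicate could be left out. Peak thresholds could only be imitated by width, and depth is unknown.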
